A study of Danio rerio with 4 samples.

Results

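The Sox, Fox and Hox families of transcription factors were followed in ventricles of adult zebrafish. Rows were taken by name (symbols beginning with sox, fox or hox, a family letter where one exists, and a digit), and a row counted as a member if at least 1 library held 50 or more counts. The rule found 30 members among 137 rows with such names, out of 31388 genes in the tables. There were 10 Sox genes of 29 rows, 20 Fox genes of 59 rows and 0 Hox genes of 49 rows. A Sox-named row with no count in any library, SOX2OT_exon1, is not named for a transcription factor. All groups were heart ventricles of fish aged 6 months to 1 year. The control fish were AB* wild type (WT), either uninjured or sampled 20 days after resection of the ventricle (20 days post amputation, 20 dpa, called resected here). The mutants, called dusp6 here, were homozygous for the pt30a allele of dusp6 and were sampled in the same 2 states. Each of the 4 groups had 1 library, and the number of ventricles per library was not given in the sources used here. The dusp6 gene encodes a phosphatase that inactivates the kinase ERK.

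Sox proteins bind and bend DNA through an HMG box, Fox proteins bind through a forkhead domain, and Hox proteins bind through a homeodomain. Sox factors of the F subgroup act in blood vessels, those of the C subgroup in progenitor cells, and those of the D and E subgroups together in cartilage. Fox factors of the O subgroup are switched off by insulin and Akt signalling and drive stress and atrophy genes, while those of the K subgroup restrain autophagy genes in mammals. Hox genes lie in clusters whose order along the chromosome follows the body axis, and they give cells a positional address.

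Total counts ran from 55197408 to 63222206 per library. Of the members, 26 reached 50 counts in every library and 4 in only some, and 24 reached 250 counts in at least 1. The 6 ventricular cardiomyocyte markers found, of 8 listed, had a summed level of 32893 to 37366 CPM (counts scaled to library size, with TMM factors). The 4 atrial cardiomyocyte markers summed to 2857 CPM in resected dusp6 and to between 1668 and 1736 CPM in the others. The part of atrial tissue in the values of resected dusp6 was not tested. Marker sums of other tissues differed between libraries. The 7 fast skeletal muscle markers summed to 70.9 CPM in resected WT and 25 in resected dusp6, against 3.20 in uninjured WT and 1.91 in uninjured dusp6. The 7 liver and gut markers summed to 127 CPM in uninjured dusp6 and to between 18.4 and 35.8 CPM in the others. The 6 macrophage markers summed to 165 CPM in resected WT and to between 44.1 and 76.2 CPM in the others. None of the markers in these 3 lists was at 0 in all libraries. The column headers name the uninjured pair and the resected pair by different patterns, so injury and the preparation of the libraries cannot be told apart. The dusp6 transcript was measured at 85.0 CPM in uninjured WT, 183 in uninjured dusp6, 105 in resected WT and 121 in resected dusp6, and the labels do not say whether the allele removes it. With bulk tissue, fewer cells of a type and less RNA per cell cannot be told apart. Where 4 values of a gene are listed without names, they belong to uninjured WT, uninjured dusp6, resected WT and resected dusp6. No comparison of 1 library with 1 had a replicate check, and bracketed intervals are exact 95% counting intervals, which do not cover the spread between fish.

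Hox transcripts were nearly undetected. In all 4 libraries 27 of the 49 Hox rows had no count, and all Hox rows together held 47 counts in uninjured WT, 87 in uninjured dusp6, 74 in resected WT and 77 in resected dusp6. A count of 0 allows up to 3 counts, or 0.0448 to 0.0574 CPM in these libraries. The hoxb clusters held 186 of the 285 Hox counts, the hoxd clusters 65, the hoxa clusters 28 and the hoxc clusters 6. The 24 rows of paralog groups 9 to 13, which act in the posterior body, held 51 counts, and 18 of them had none. The 10 rows of groups 1 to 3 held 114 counts and the 15 rows of groups 4 to 8 held 120. The highest Hox row was hoxb5a with 8 counts in uninjured WT, 38 in uninjured dusp6, 16 in resected WT and 18 in resected dusp6. It was thus highest in 1 uninjured library, and no Hox row reached the minimum.

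**Figure D1:**
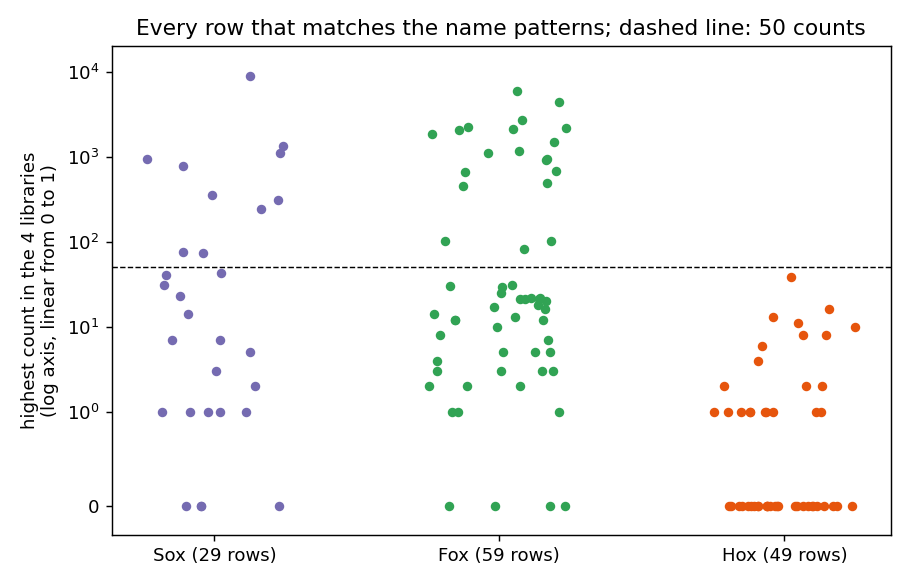
Highest count in any of the 4 libraries for every row with a Sox, Fox or Hox name, 1 point per row, on an axis that is logarithmic above 1 and linear below. The 49 Hox points all lie under the dashed line at 50 counts, with hoxb5a highest at 38, while 20 Fox and 10 Sox points lie above it.

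The partners of Hox proteins were present. The TALE homeobox list, the pbx, meis and pknox cofactors of Hox proteins, had 11 of 14 members above the minimum. In uninjured WT, uninjured dusp6, resected WT and resected dusp6, meis1b was measured at 97.5, 103, 101 and 96.6 CPM, pbx4 at 42.1, 40.1, 31.5 and 34.4 CPM, and pbx1a at 12, 11.7, 6.04 and 8.0 CPM. Thus meis1b stayed within a narrow range, and pbx4 and pbx1a were lower in both libraries at 20 dpa. Of the 11, 1 other gene was at least 2-fold higher at 20 dpa in dusp6 (all genes: 6.64%) and 0 were 2-fold lower (all genes: 8.66%). In WT 0 were 2-fold higher (all genes: 6.86%) and 0 lower (all genes: 5.29%). The list's median log2 difference from the own uninjured library was -0.22 in WT and -0.22 in dusp6, against -0.01 and -0.01 over all genes tested. No TALE gene passed the edgeR test (all genes: 0.819% for injury and 0.0064% for genotype).

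Rows just outside the rule were sox17 with a highest count of 43 and sox9b with 41, and just inside it were sox12 with 74 and sox9a with 75. The counts of sox17, a SoxF gene of endoderm and endothelium, were 11 in uninjured WT, 10 in uninjured dusp6, 43 in resected WT and 43 in resected dusp6. Both resected libraries were higher than both uninjured ones, by 4.75-fold in WT (2.41 to 10.2) and 5.04-fold in dusp6 (2.5 to 11.3). The counts of sox9b were 12, 37, 41 and 35 in the same order, lowest in uninjured WT. After resection sox9b was 4.15-fold higher in WT (2.14 to 8.68) and 1.11-fold higher in dusp6 (0.679 to 1.81). The forkhead gene foxn4, which acts in the atrioventricular canal of zebrafish embryos, had 31, 24, 9 and 6 counts in the same order and was lower in both resected libraries. foxm1, which drives mitotic genes in mammals, had 25, 29, 30 and 14 counts. sox10, a neural crest and Schwann cell factor, had 31, 18, 18 and 30 counts. These rows were singled out after their values were seen, and at such counts only large differences can be detected.

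Levels between genes were compared as the authors' RPKM, which divides by gene model length. The members had a median mean RPKM of 3.45, close to 3.05 over the 15621 genes with at least 50 counts in 1 library. The Sox genes ran from 0.229 (sox12) to 30.9 (sox4a_2) and the Fox genes from 0.255 (foxh1) to 14.2 (FOXO4). The row sox4a_2 was thus the highest member, with 30.0 RPKM in uninjured WT, 39.6 in uninjured dusp6, 24.9 in resected WT and 29.0 in resected dusp6. Another row of this name, sox4a_1, reached only 23 counts. FOXO4, foxc1a, foxo3a and sox18 followed with means of 14.2, 12.9, 10.2 and 8.13 RPKM. How reads shared between paralogs were counted was not given in the sources used here, so levels of close paralogs are uncertain.

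**Figure D2:**
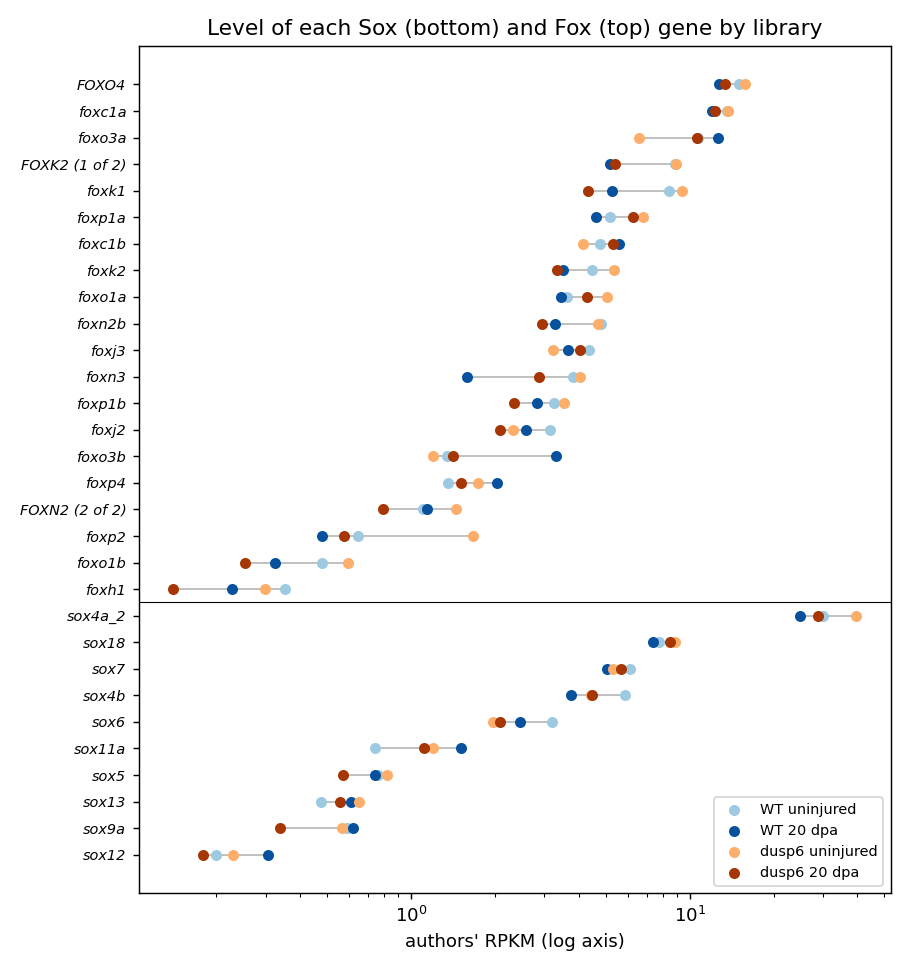
RPKM of the authors on a log axis for each of the 30 members, with 1 point per library and a grey line from the lowest to the highest. For most genes the libraries lie close together beside the spread between genes, from 0.229 to 30.9 in mean RPKM, and foxp2, foxo3b and foxn3 have the widest lines among genes with at least 250 counts in 1 library.

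Within the pairs of zebrafish paralogs given here the a copy was the more abundant by RPKM. In uninjured WT, uninjured dusp6, resected WT and resected dusp6, the RPKM of foxo1a was 7.54, 8.50, 10.7 and 16.8 times that of foxo1b. For foxo3a over foxo3b the ratio was 7.96, 5.48, 3.82 and 7.52. For foxc1a over foxc1b it was 2.84, 3.29, 2.16 and 2.33. The ratio of foxp1a to foxp1b was 1.60, 1.92, 1.62 and 2.68, but in CPM, which is not divided by length, foxp1b was higher in every library. The foxo3 ratio was lowest in resected WT. On the RefSeq map (assembly GRCz12tu), foxc1a and foxc1b each lie within a few genes of a foxf2 and a foxq1 gene. The neighbours foxf2a, foxq1a, foxf2b and foxq1b reached at most 22, 4, 12 and 20 counts, against 1599 to 2101 for foxc1a and 553 to 664 for foxc1b.

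The next comparison asked how the members differed 20 days after resection from the uninjured library of the same genotype. The FoxK genes, foxn2b and foxn3 were lower in both resected libraries, and foxo3a, foxo3b and foxc1b were higher in both. At least 2-fold differences were few. In WT, foxo3b and sox11a were at least 2-fold higher (2 of 30, against 6.86% of all genes tested) and foxn3 was at least 2-fold lower (1 of 30, against 5.29%). In dusp6, foxk1, foxo1b and foxp2 were at least 2-fold lower (3 of 30, against 8.66%) and 0 of 30 were at least 2-fold higher (against 6.64%). foxo1b reached the minimum only in the uninjured libraries (69 and 82 counts, against 40 in resected WT and 32 in resected dusp6). The minimum thus favours a lower resected value for foxo1b. The shares over all genes were made with the same minimum. Against the mean of both uninjured libraries sox11a was no longer past 2-fold in WT and foxp2 was (2.39-fold lower), and in dusp6 foxk1 (1.87-fold lower), foxo1b (1.93-fold) and foxp2 (1.85-fold) were no longer past it. No member was 2-fold different in the same direction in both genotypes, where 2.52% of all genes were higher and 2.48% lower, and none was 2-fold different in opposite directions (all genes: 0.516%). At 1.5-fold, 4 of 30 were higher in WT (all genes: 14.5%) and 3 lower (14.1%), and in dusp6 1 was higher (14.9%) and 7 lower (18.9%). Of the 7 lower in dusp6, foxh1, foxo1b and sox9a were under the minimum in resected dusp6 (35, 32 and 38 counts) but not in uninjured dusp6. In both genotypes foxk1 and FOXK2 (1 of 2) were at least 1.5-fold lower (2 of 30, against 8.08%), and 0 of 30 were 1.5-fold higher (against 6.75%).

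Counted by direction alone, lower values were the more frequent. In WT 20 of 30 members were lower by any amount (all genes: 50.7%) and in dusp6 22 of 30 (all genes: 51.2%). The 22 include foxh1, foxo1b, sox9a and sox12, which reached the minimum in uninjured dusp6 and not in resected dusp6. For these genes the minimum favours the lower direction in dusp6. foxo1b was under the minimum in resected WT too, so the same holds for it in WT. Both genotypes shared the lower direction for 15 of 30 members (all genes: 37.4%) and the higher direction for 3 of 30 (all genes: 35.7%). Of the 15, 14 were Fox genes, with foxh1 and foxo1b among them, and 1 was sox4a_2. Some of these ratios were near 1, such as foxo1a in WT at 0.999 (0.922 to 1.08) and foxp1a in dusp6 at 0.988 (0.915 to 1.07). The split also depends on the reference. Against the mean of both uninjured libraries, foxo1a (1.08-fold) and foxp1a (1.14-fold) were higher in dusp6. FOXN2 (2 of 2), sox4b, sox5 and sox6 were then lower in both genotypes. Higher in both genotypes, beside foxc1b, foxo3a and foxo3b, were then also foxp4, sox11a and sox13. Their log2 differences in WT and dusp6 were 0.42 and 0.10 for foxp4, 0.67 and 0.32 for sox11a, and 0.14 and 0.11 for sox13. No share over all genes was made for this reference. Both resected libraries share it, and it mixes the difference between the genotypes into each ratio. In dusp6 against its own uninjured library, the ratios were 0.939 for foxp4, 0.998 for sox11a and 0.917 for sox13. The median log2 difference of the Fox genes was -0.18 in WT and -0.26 in dusp6, and that of the Sox genes was 0.01 and -0.06, against -0.01 and -0.01 over all genes tested. These medians have no test.

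**Figure D3:**
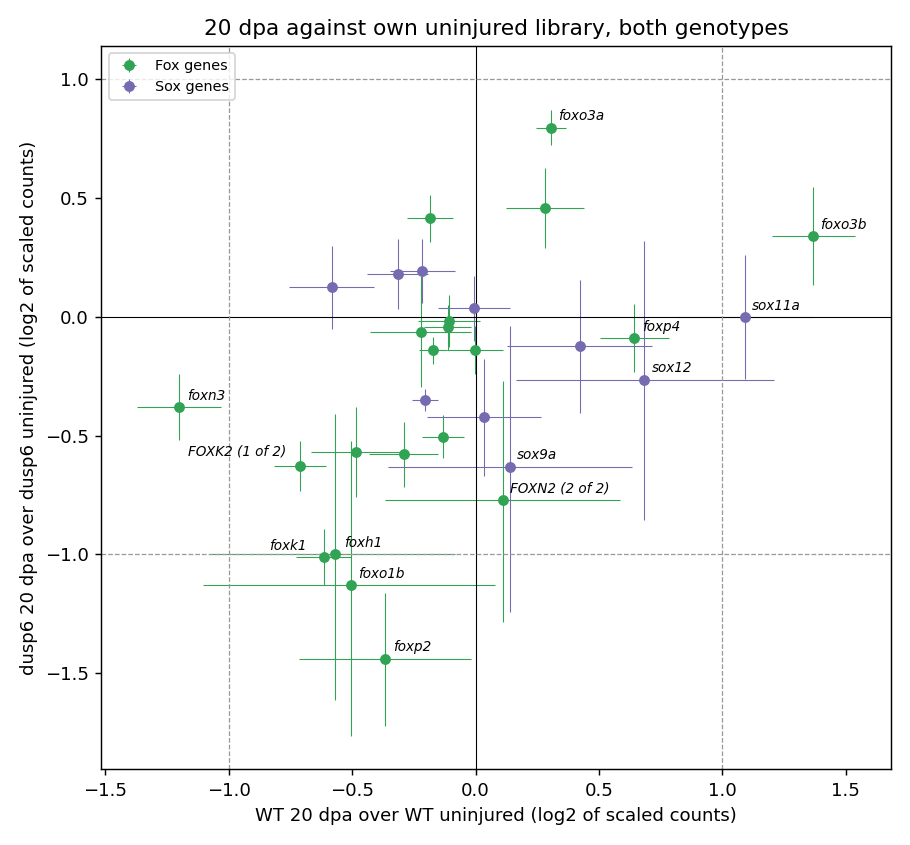
Log2 ratio of scaled counts at 20 dpa over the own uninjured library, WT on the horizontal and dusp6 on the vertical axis, for 20 Fox and 10 Sox genes, with 95% counting intervals as bars and dashed lines at 2-fold. No library is used on both axes, 15 points lie in the lower left corner and 3 in the upper right, and none lies past 2-fold on both axes.

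The test across all genes was an edgeR quasi-likelihood fit that held terms for genotype and for injury and no interaction. Its single residual degree of freedom measures how far the genotypes part in their injury difference, not the spread between libraries of a group. For injury it called 0 of 30 members at an adjusted p of 0.05, against 0.819% of all genes. At an unadjusted p under 0.05 it had 8 of 30 members, against 27.4% of all genes. These 8 were FOXK2 (1 of 2), foxk1, foxk2, foxn2b, foxn3 and foxp2, which were lower (6 of 30, all genes: 13.4%), and foxo3a and foxo3b, which were higher (2 of 30, all genes: 14.0%). A DESeq2 Wald test of the same model called 2 members for injury, foxk1 and FOXK2 (1 of 2), against 8.92% of all genes. For genotype edgeR called 0 of 30 (all genes: 0.0064%) and DESeq2 0 (all genes: 0.954%), and edgeR had 4 members at an unadjusted p under 0.05 (all genes: 8.83%), all 4 higher in dusp6 (all genes: 4.84%) and 0 lower (all genes: 3.99%).

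The FoxK genes, repressors of autophagy genes in mammals, were lower in both resected libraries. foxk1 was measured at 28.5 CPM in uninjured WT, 33.2 in uninjured dusp6, 18.6 in resected WT and 16.5 in resected dusp6. After resection it was lower by 1.53-fold in WT (1.42 to 1.65) and by 2.01-fold in dusp6 (1.86 to 2.18), with an adjusted p of 0.0781 in edgeR and 0.0128 in DESeq2. For FOXK2 (1 of 2) the libraries gave 32.8, 34.7, 20.1 and 22.5 CPM. After resection it was lower by 1.64-fold in WT (1.52 to 1.76) and by 1.55-fold in dusp6 (1.44 to 1.66), with an adjusted p of 0.0752 in edgeR and 0.0299 in DESeq2. The third gene, foxk2, was at 15.4, 19.2, 12.5 and 12.9 CPM and was 1.22-fold and 1.49-fold lower. For all of them both resected libraries lay below both uninjured ones. Summed, the FoxK genes were lower by 1.5-fold in WT (1.43 to 1.57) and by 1.68-fold in dusp6 (1.61 to 1.76).

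The FoxN genes were also lower after resection, apart from FOXN2 (2 of 2) in WT. foxn3, which encodes a repressor linked to cell cycle checkpoints, was at 16.3 CPM in uninjured WT, 17.9 in uninjured dusp6, 7.08 in resected WT and 13.8 in resected dusp6. It was lowest in resected WT, 2.30-fold below uninjured WT (2.04 to 2.59), while the difference in dusp6 was 1.30-fold (1.18 to 1.43). At 20 dpa foxn3 was 1.95-fold higher in dusp6 than in WT (1.72 to 2.21). Whether the genotypes differ in this response could not be tested, since the model with an interaction leaves no residual. foxn2b was at 10.2, 10.4, 7.26 and 7.0 CPM, 1.40-fold and 1.48-fold lower. FOXN2 (2 of 2) had 51 to 102 counts and was 1.71-fold lower in dusp6 (1.21 to 2.44) and at 1.08 of its uninjured level in WT (0.775 to 1.5).

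The FoxO genes held the highest summed RPKM of the Fox subgroups and differed in direction. foxo3b was at 6.48 CPM in uninjured WT, 6.05 in uninjured dusp6, 16.7 in resected WT and 7.65 in resected dusp6. The resected WT library thus stood apart, 2.58-fold above uninjured WT (2.30 to 2.90) and 2.19-fold above resected dusp6 (1.94 to 2.47), and the edgeR adjusted p for injury was 0.161. In the authors' deposited table foxo3b had a fold change of 2.65 and an FDR of 0.0303 in WT and a fold change of 1.23 with an FDR of 1 in dusp6, where each resected library was set against both uninjured libraries, WT and dusp6 together. It was the 1 member with an FDR of at most 0.05 in the authors' deposited tables, against 2.9% of the genes with 50 counts for WT and 2.66% for dusp6. The resected WT library also held the highest skeletal muscle and macrophage marker sums. The same library was highest for the 7 epicardial markers (1178 CPM, against 721 to 929 in the others), the 6 markers of gill, skin and other epithelia (214 CPM, against 98.1 to 167) and the 6 smooth muscle markers found of 7 listed (177 CPM, against 122 to 166). The part of these cell types in the foxo3b and foxn3 values was not tested.

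The paralog foxo3a was at 64.2, 41.3, 79.5 and 71.6 CPM in uninjured WT, uninjured dusp6, resected WT and resected dusp6. It was lowest in uninjured dusp6, and it was 1.24-fold higher after resection in WT (1.19 to 1.29) and 1.73-fold higher in dusp6 (1.65 to 1.82). FOXO4 was at 86.6, 95, 76.9 and 86.2 CPM, a range of 1.24-fold over the libraries. foxo1a was at 20.3, 29.8, 20.3 and 27.0 CPM, so both dusp6 libraries lay above both WT libraries. The low paralog foxo1b had 32 to 82 counts and was 2.18-fold lower at 20 dpa in dusp6 (1.44 to 3.40) and 1.42-fold lower in WT (0.948 to 2.15). Summed over the 5 FoxO genes, the level was 1.09-fold higher in WT (1.06 to 1.11) and 1.11-fold higher in dusp6 (1.08 to 1.14). Total-count scaling lowers these ratios, since it shifts the median of all genes by -0.0856 in WT and -0.105 in dusp6 on the log2 scale.

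Genes linked to FoxO in mammals, a list with 23 of 24 members above the minimum, had 1 member that fell in the edgeR fit and 0 that rose (1 of 23, against 0.819% of all genes). The one that fell was GABARAPL1, an autophagy gene, at 64.3, 94.0, 25.9 and 37.5 CPM in the order used above (adjusted p 0.0484), a call that was lost with total-count scaling or a minimum of 250 counts. By fold, bnip3, a mitophagy gene, cdkn1bb, a cell cycle inhibitor gene, and GABARAPL1 were at least 2-fold lower in both genotypes (3 of 23, against 2.48% of all genes). cdkn1bb was at 15.7, 20.9, 6.93 and 9.49 CPM (adjusted p 0.0529). fbxo32, an atrophy ubiquitin ligase gene, was at 36.8, 46.4, 22.4 and 22.3 CPM, and sesn1, a sestrin gene, was at 124, 148, 267 and 251 CPM. sesn1 was thus higher and fbxo32 lower in both resected libraries. The median log2 difference of the list was -0.20 in WT and -0.23 in dusp6.

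The FoxP genes, repressors that act in heart, lung and brain development of the mouse, differed from gene to gene. foxp2 was at 2.69 CPM in uninjured WT, 7.31 in uninjured dusp6, 2.09 in resected WT and 2.70 in resected dusp6. Its high value came from the uninjured dusp6 library alone, which was 2.72-fold above uninjured WT (2.28 to 3.25) and 2.71-fold above resected dusp6 (2.24 to 3.30). That library also held the highest liver and gut marker sum, and its part in the foxp2 value was not tested. foxp4 was at 11, 14.7, 17.2 and 13.8 CPM and was 1.56-fold higher at 20 dpa in WT (1.42 to 1.72). In dusp6 foxp4 was 1.07-fold lower (0.965 to 1.18). foxp1b was at 38.5, 44.1, 35.2 and 31.1 CPM, 1.1-fold and 1.42-fold lower at 20 dpa. foxp1a is described with the genotype comparison.

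The remaining Fox members were foxc1a, foxc1b, foxj2, foxj3 and foxh1. The FoxC genes act in mesoderm and vessels. foxc1a, at 31.4, 33.0, 29.0 and 32.1 CPM, had the smallest range of the 30 members, 1.14-fold over the libraries. foxc1b, at 9.92, 9.02, 12.1 and 12.4 CPM, was 1.22-fold higher at 20 dpa in WT (1.09 to 1.36) and 1.37-fold higher in dusp6 (1.22 to 1.54). foxj3 was at 33.2, 25.9, 29.3 and 34.5 CPM, so that its 20 dpa level was lower than uninjured in WT and higher in dusp6. foxj2 was at 7.24, 5.60, 6.21 and 5.36 CPM, highest in uninjured WT. foxh1, which encodes a partner of Smad proteins in Nodal signalling, had 101, 82, 56 and 35 counts and was 1.48-fold lower at 20 dpa in WT (1.06 to 2.10) and 2.0-fold lower in dusp6 (1.33 to 3.06), just inside the 2-fold bound and not counted as past it.

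**Figure D4:**
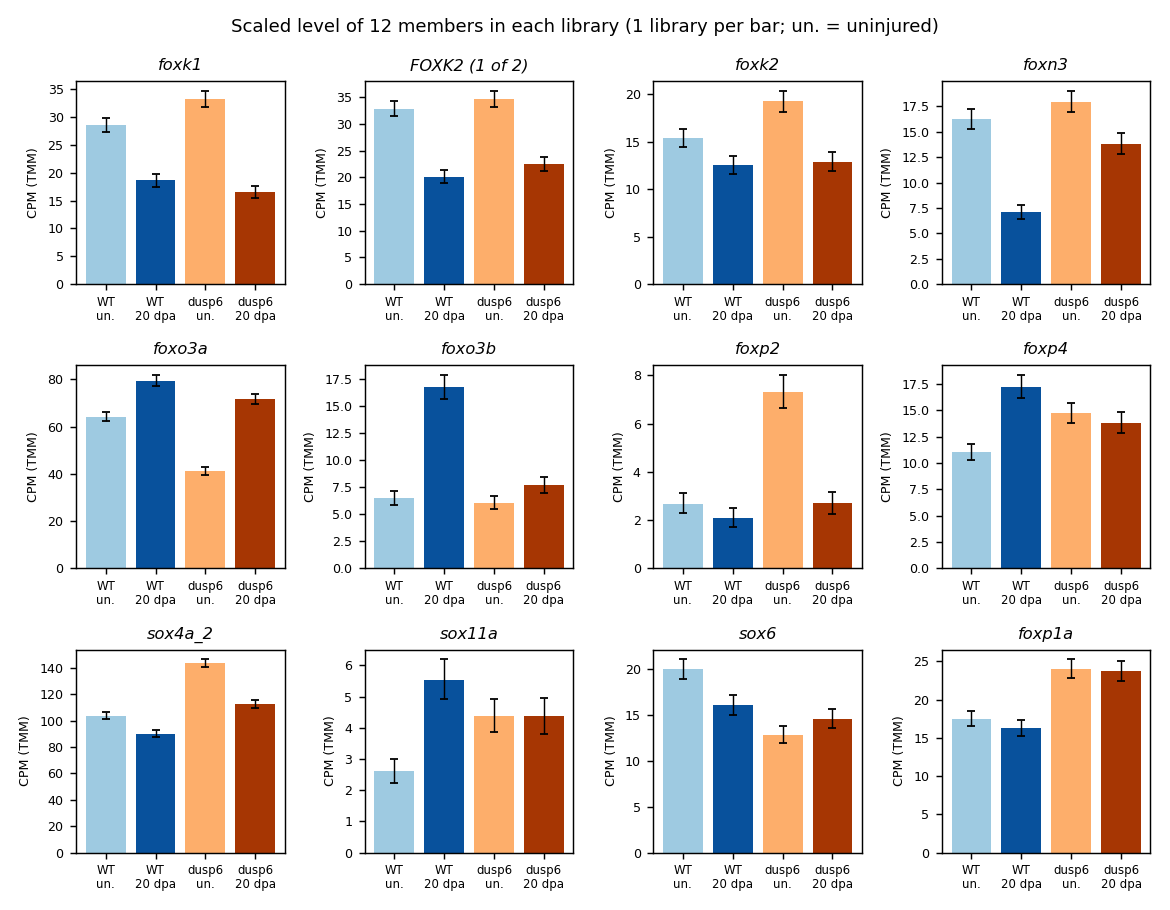
Scaled level in CPM of 12 members in each library, 1 library per bar, with exact 95% Poisson intervals of the count as error bars; axes start at 0 and differ between panels. foxk1, FOXK2 (1 of 2) and foxk2 are lower in both 20 dpa bars, foxo3b is high in WT 20 dpa alone at 16.7 CPM, and foxp2 is high in dusp6 uninjured alone at 7.31 CPM.

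Among SoxC genes, sox11a was at 2.60 CPM in uninjured WT, 4.37 in uninjured dusp6, 5.54 in resected WT and 4.36 in resected dusp6. The uninjured WT library was the lowest, so sox11a was 2.13-fold higher after resection in WT (1.76 to 2.58) and nearly level in dusp6 (ratio of the uninjured to the resected level 0.837 to 1.2). Against the mean of both uninjured libraries sox11a was 1.59-fold higher in WT (log2 difference 0.67), no longer past 2-fold, and its log2 difference in dusp6 was 0.32. The main SoxC gene, sox4a_2, was at 104, 144, 90.1 and 113 CPM, 1.15-fold lower at 20 dpa in WT (1.11 to 1.19) and 1.28-fold lower in dusp6 (1.23 to 1.32). sox4b was at 11.6, 9.12, 7.75 and 9.93 CPM, 1.5-fold lower in WT (1.33 to 1.69). sox12 had 44 to 74 counts and its highest value in resected WT.

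Of the SoxF genes of the endothelium, the members sox7 and sox18 varied little, unlike sox17 at its low counts. sox18 was at 12.6 CPM in uninjured WT, 15.1 in uninjured dusp6, 12.6 in resected WT and 15.5 in resected dusp6. sox7 was at 16.6, 15.2, 14.3 and 17.3 CPM. The ranges over the libraries, 1.21-fold for sox7 and 1.23-fold for sox18, were the smallest after that of foxc1a. The 8 endothelial markers summed to 687, 696, 809 and 846 CPM in this order. The list of endothelial genes linked to SoxF had 11 of 12 members above the minimum and medians of 0.04 in WT and 0.05 in dusp6. None of its members passed the edgeR test (all genes: 0.819% for injury and 0.0064% for genotype). Its member tek, an angiopoietin receptor gene, was at 67.0, 55.6, 138 and 146 CPM (adjusted p 0.0525). tek is also among the 8 endothelial markers summed above, so its higher resected values are part of their higher resected sums.

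SoxD factors lack an activation domain of their own and work with other factors. sox6, which represses slow fibre genes in zebrafish muscle, was at 19.9, 12.8, 16.0 and 14.5 CPM in uninjured WT, uninjured dusp6, resected WT and resected dusp6, highest in uninjured WT. It was 1.24-fold lower at 20 dpa in WT (1.14 to 1.36) and 1.13-fold higher in dusp6 (1.02 to 1.25). sox5 was at 5.14, 5.82, 5.26 and 4.34 CPM and sox13 at 2.78, 3.96, 3.72 and 3.64 CPM. Of the SoxE genes, which act in cartilage, valves and neural crest, only sox9a reached the minimum, with 75, 69, 68 and 38 counts and its lowest value in resected dusp6. In the list of Sox9-linked matrix genes 8 of 16 members were above the minimum, with median log2 differences of 0.00 in WT and 0.12 in dusp6. Of these, col11a1b, a fibrillar collagen gene, was at 0.64, 0.41, 3.45 and 1.72 CPM. It was under the minimum in both uninjured libraries, where 50 counts are 0.747 CPM (WT) and 0.816 CPM (dusp6). The minimum thus favours a higher resected value for col11a1b. The list of Sox10-linked Schwann and pigment cell genes had 4 of 12 members above the minimum and medians of 0.04 and -0.05. No member of these lists passed the edgeR test (all genes: 0.819% for injury and 0.0064% for genotype).

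The FoxM1-linked mitosis list had 9 of its 13 matched members above the minimum. Its median log2 difference was 0.43 in WT and -1.01 in dusp6, and at 20 dpa dusp6 lay below WT with a median of -0.94. Uninjured dusp6 lay above uninjured WT with a median of 0.57. plk1, a mitotic kinase gene, was at 1.64, 2.22, 2.14 and 0.40 CPM and top2a, a topoisomerase gene, at 3.14, 5.56, 5.25 and 2.47 CPM. Both were lowest in resected dusp6, as was foxm1 itself at 14 counts. These are genes of low counts. In resected dusp6, where 50 counts are 0.957 CPM, plk1 was under the minimum, which favours a low value there. The difference between the genotypes was not tested. None of the list passed the edgeR test (all genes: 0.819% for injury and 0.0064% for genotype).

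The last comparison set the dusp6 mutants against WT in each state. foxp1a, foxo1a, sox4a_2 and sox18 were higher in both dusp6 libraries than in both WT libraries. So were foxc1a, by a small margin, and foxp2, which was nearly level between resected dusp6 (2.698 CPM) and uninjured WT (2.688 CPM). Only foxp2 was at least 2-fold higher in uninjured dusp6 (1 of 30, against 4.21% of all genes) and 0 of 30 were at least 2-fold lower (against 3.26%). At 20 dpa foxo3b was 2-fold lower in dusp6 (1 of 29, against 4.46%) and 0 of 29 were 2-fold higher (against 3.27%). At 1.5-fold, 2 of 30 were higher in uninjured dusp6 (against 9.81%) and foxo3a and sox6 were lower (2 of 30, against 7.57%), and after resection 1 of 29 was higher (against 7.54%) and 4 of 29 were lower (against 10.6%). Of these 4, foxh1, sox9a and sox12 were under the minimum in resected dusp6 alone, which favours a lower value there. foxp1a, which in mouse acts in cardiomyocyte proliferation, was at 17.5 CPM in uninjured WT, 24.0 in uninjured dusp6, 16.2 in resected WT and 23.7 in resected dusp6. It was 1.37-fold higher in uninjured dusp6 (1.27 to 1.49) and 1.46-fold higher at 20 dpa (1.34 to 1.60), with an edgeR adjusted p of 0.503. The values for foxo1a were 1.46-fold (1.36 to 1.57) and 1.33-fold (1.23 to 1.44), and those for sox4a_2 were 1.38-fold (1.34 to 1.43) and 1.25-fold (1.2 to 1.30). sox18 was also higher in dusp6 in both states, by 1.2-fold (1.09 to 1.31) and 1.23-fold (1.11 to 1.36). Higher in dusp6 in both states by any amount were 10 of 29 members (all genes: 29.5%), and lower in both were 5 of 29 (all genes: 27.5%). By state, 9 of 30 were lower in uninjured dusp6 (all genes: 48.4%) and 15 of 29 in resected dusp6 (all genes: 49.3%). None was at least 1.5-fold higher in both states (all genes: 2.1%) or 1.5-fold lower in both (all genes: 1.96%). At 2-fold there was likewise none (all genes: 0.692% higher, 0.692% lower and 0.58% in opposite directions). Genotype and the background of each fish line cannot be told apart here.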

How the data were processed

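The authors deposited 2 tables, each with 1 library at 20 dpa beside the uninjured pair. The columns are, per the file headers, expression values, whole numbers used here as raw counts, and RPKM made by the authors. The deposited tables also give a signed fold change (a score) with an EDGE test's p-value and FDR. Aligner, genome build, annotation and strandedness were not given in the sources used here. Columns of the uninjured libraries were identical in both tables.

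Counts were scaled by TMM (edgeR 4.0.16, R 4.3.3) with factors from genes with at least 50 counts in 1 library (1.06, 1.01, 0.998 and 0.938 in WT uninjured, dusp6 uninjured, WT 20 dpa and dusp6 20 dpa). Fold changes are ratios of scaled counts for genes with at least 50 counts in either library, called at 2-fold; a library at 0 was set to 3 counts. Intervals and floors cover counting error only, not the spread between fish. They may be too narrow even for that, because reads that carry no molecular identifier need not be separate molecules. The additive fit used edgeR's quasi-likelihood test, with Benjamini-Hochberg adjustment over 15621 genes, and DESeq2 1.42.0 as an alternative. Ratios, intervals and fit were tested on simulated data. Named members were the 6 highest of each family by RPKM and the 3 largest differences each way per comparison with at least 250 counts. The rule also named members called in the edgeR fit or 2-fold different in both genotypes or both states, but none was. The remaining members are given more briefly. Members and lists were chosen with earlier results of these data known. All 30 member IDs were found in the gene name table. Protein and promoter sequences were not used here.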

Additional observations from a re-analysis of the deposited data

Results flagged for a closer look

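For 3 members the 20 dpa libraries differed from the own uninjured library in opposite directions in the genotypes, with counting intervals off a ratio of 1 in each. No share of all genes that meet this rule was made, so whether 3 members are many is not known. On the log2 scale foxj3 was at -0.18 in WT and 0.41 in dusp6. The values for sox6 were -0.31 in WT and 0.18 in dusp6. For sox7 they were -0.21 and 0.19. Each rests on 1 library per group, and the difference between the genotypes was not tested. Against the mean of both uninjured libraries sox6 was lower in both genotypes (-0.03 in WT and -0.17 in dusp6). The directions stayed opposite for sox7 (-0.15 and 0.12) and for foxj3 (-0.01 and 0.22). Total-count scaling shifts the dusp6 values by -0.105, after which the dusp6 intervals of sox6 and sox7 include a ratio of 1.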

How the results depend on the processing

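No paired analysis was possible because each group has 1 library and the labels give no replicate numbers, and leaving out a library leaves the additive fit no residual. Total-count scaling, DESeq2 size factors and a minimum of 250 counts left each count of members past 2-fold within 1.5 times. The members behind the dusp6 count at 20 dpa still changed. foxk1 came just inside 2-fold with size factors, foxo1b fell out with the minimum of 250 counts, and foxh1 came past 2-fold with total-count scaling. A fold of 1.5 raised the counts to 7 in WT and 8 in dusp6 at 20 dpa, 4 between the uninjured libraries and 5 between the 20 dpa libraries, and a fold of 3 gave 0 in each. With no minimum, all 137 rows gave 23, 20, 14 and 15, mostly from low counts. No share of all genes past 2-fold without a minimum is given here, so these counts cannot be set against it. In dusp6 at 20 dpa a pseudocount of 1 CPM and the mean of both uninjured libraries each gave 1 in place of 3 (foxp2 and foxh1, in this order). The mean moved foxp2 in WT from -0.36 to -1.26 on the log2 scale. In the additive fit DESeq2 called 2 members for injury, and the other settings left the counts at 0. Over all genes the edgeR count for injury was unstable, at 128, with 396 for TMM factors from all rows (added after seeing the data) and 1 for total-count scaling. The calls over all genes were 1394 by DESeq2 (8.92%), 880 of 25049 genes with no minimum, 431 with size factors and 1 of 11319 with 250 counts, and the list counts should be read against these. The FoxO-linked list gave 6 calls by DESeq2, 5 with no minimum, 3 with size factors or TMM from all rows, and 0 with 250 counts or total-count scaling, in place of 1. The Sox9-linked and SoxF-linked lists gave 2 each by DESeq2 and 1 each with no minimum, and the SoxF-linked list 1 with size factors or TMM from all rows, in place of 0. These list alternatives were chosen after seeing the data. Of 420 single-member values under other settings, 43 moved beyond the counting interval and none past 2-fold changed sign. Most of the moves, 26, came from the mean of both uninjured libraries, where 34 values did not move. Total-count scaling moved 16 and the pseudocount 1, while with DESeq2 size factors all 120 values stayed within the interval. Where no cause is given, the cause was not tested.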
